A study of Mus musculus with 8 samples.

Results

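Prostaglandins are short-lived lipid signals made from arachidonic acid, and 9 genes of their synthesis, breakdown and reception in the mouse intestine are described here: Ptgs1, Ptgs2, Ptges, Hpgds, Hpgd, Ptger1, Ptger2, Ptger3 and Ptger4. They were chosen by symbol from the 32285 genes that each of the 8 libraries lists, and each symbol matched 1 row with 1 gene identifier. The cyclooxygenases (Ptgs1, Ptgs2) make the common precursor prostaglandin H2, and terminal synthases then turn it into prostaglandin E2 (Ptges) or prostaglandin D2 (Hpgds). Hydroxyprostaglandin dehydrogenase (Hpgd) starts the breakdown of prostaglandin E2, and the receptors EP1 to EP4 (Ptger1 to Ptger4) bind it on the surface of target cells. In the intestine prostaglandin E2 is known as a signal from stromal and immune cells to the epithelium in repair and inflammation, and tuft cells are known as an epithelial source of lipid mediators.

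The study set lymphatic vessels beside intestinal stem cells, and all 8 libraries are from C57BL/6 mice by label. The mice used for sorting were C57BL/6 and Lgr5-eGFP-ires-CreERT2 animals on that background, and the labels do not say which gave which library. One library each holds the small and the large intestine, digested and sorted as live cells with added LGR5+ stem cells and added CD31+ PDPN+ LYVE1+ lymphatic endothelial cells, so class sizes reflect the sort. Another 2 libraries hold epithelial cells sorted from small intestinal organoids (epithelial cultures grown from crypts) at passage 1, grown alone (control) or in coculture, from 16 pooled wells each; the partner cells of the coculture are not named in the labels. The last 4 libraries are Visium sections (10 µm cryosections on a grid of barcoded spots), 2 technical duplicates of each tissue, and the ages and sexes of the mice are not given in the sources used here.

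Each organoid condition and each tissue is therefore 1 sample, and no comparison has a replicate test. Values are UMIs (unique molecular identifiers, a count of captured RNA molecules) summed over a class of cells and given as CPM, scaled to 1000000 UMIs of that class. Brackets hold exact 95% intervals, Poisson for a level or ratio and Clopper-Pearson for a share, and these cover counting error only. The quality filter kept 538 cells of the control organoids and 1028 of the cocultured ones, 2695 cells of the small and 5882 of the large intestine, and 2094 to 2571 spots a section. The deposited libraries held 24356162 to 142501907 UMIs. In the small intestinal library 5497 of 8842 barcodes had over 20% mitochondrial UMIs and were left out. The small and large intestinal cell libraries shared 25 barcodes and the organoid libraries 0.

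Cells were grouped without using the 9 genes, and a cluster was given a name ending in "-like" only where listed marker genes of that type were raised in it. The sorted types were present: the small intestine gave 159 stem-like cells led by Olfm4, Gkn3 and Lgr5 and 349 lymphatic endothelial-like cells led in their larger cluster by Ccl21a, Mmrn1 and Lyve1, against 1173 and 205 such cells in the large intestine. One large intestinal group of 64 cells, cluster 27, stayed unnamed because its median of 6970 UMIs was far under the library's 21761 and none of its 10 leading genes was a marker. It was led by Cxcl14, Nrg1, Bmp5, Tnc, Emid1, Procr, Wnt5a, Fgf7, Srpx2 and Tmem119. All 10 fibroblast markers had UMIs in it, at a summed 24007 CPM against 39138 CPM in the fibroblast-like cells of that library.

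The promoters of Ptgs1 and Hpgds are shown because these 2 genes, a cyclooxygenase and a synthase that acts on its product, both had tuft-like and macrophage-like cells as their 2 highest named classes in each tissue. Each sequence is the 250 bases before the transcription start that RefSeq's table uses on GRCm38.p6 (mm10), read along the gene. Ptgs1 lies on the plus strand at chr2:36230176-36230425 and Hpgds on the minus strand at chr6:65144731-65144980, and both starts lie inside a longer RefSeq span of the gene. Capitals mark matches to GGAAGT, the core bound by ETS factors such as PU.1, and to ATGCAAAT, the octamer bound by POU factors.

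Ptgs1: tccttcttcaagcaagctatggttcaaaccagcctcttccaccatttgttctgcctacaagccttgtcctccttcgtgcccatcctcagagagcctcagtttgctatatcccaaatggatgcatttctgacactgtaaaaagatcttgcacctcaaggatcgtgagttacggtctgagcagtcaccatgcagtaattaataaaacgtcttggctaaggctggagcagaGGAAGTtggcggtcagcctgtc

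Hpgds: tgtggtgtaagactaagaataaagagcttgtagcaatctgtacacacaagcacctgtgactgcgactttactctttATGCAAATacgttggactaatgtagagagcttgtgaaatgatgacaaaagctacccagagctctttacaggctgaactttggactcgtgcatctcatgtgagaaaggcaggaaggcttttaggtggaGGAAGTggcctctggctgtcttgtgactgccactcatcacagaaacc

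ATGCAAAT, GGAAGT and TATAAA were searched on both strands, and these motifs do not overlap one another in the windows shown. GGAAGT was found in Ptgs1 at 22 to 17 bases before the start and in Hpgds at 47 to 42 bases before it, and ATGCAAAT in Hpgds at 174 to 167 bases before it. Among 32536 RefSeq promoter windows of the same length, 19.8% held GGAAGT, 1.62% held ATGCAAAT, 12.3% held TATAAA and 0.264% held both GGAAGT and ATGCAAAT. Of the 9 genes 8 matched the promoter table (Ptger1 did not), and the other 6 had none of the 3 motifs in this window. A match is a description of the letters and does not show that a factor binds.

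Ptgs1, the constitutive cyclooxygenase (chr2:36216742-36258593), was high in 2 unrelated types of cell in the small intestine, macrophage- or monocyte-like cells (called macrophage-like from here) and tuft-like cells. Macrophage-like cells held 304 Ptgs1 UMIs at 275 CPM (245 to 308), with a UMI in 87 of 172 cells. Tuft-like cells held 391 Ptgs1 UMIs at 248 CPM (224 to 274), with a UMI in 78 of 99 cells. The intervals overlapped, with a log2 ratio of macrophage-like over tuft-like of 0.15 (-0.07 to 0.37), and the highest exceeded the next class by 1.22 with the strict cell filter and by 0.95 at a Leiden resolution of 2, so the ratio depends on the filter and the grouping. Tuft cells are rare chemosensory epithelial cells, and macrophages are tissue phagocytes. With every cell thinned to 2000 UMIs and shallower cells left out, a Ptgs1 UMI remained in 48 of 136 macrophage-like cells (35.3%, 27.3 to 43.9) and 39 of 99 tuft-like cells (39.4%, 29.7 to 49.7), against 0 of 90 plasma-like cells, whose median depth before thinning was 25380 UMIs against 5108.5 and 16150. The next levels of Ptgs1 were in blood endothelial-like (61.9 CPM, 9 UMIs) and smooth muscle- or pericyte-like cells (49.5 CPM, 21 UMIs).

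In the large intestine Ptgs1 had another high group. Cluster 27 held 212 Ptgs1 UMIs at 441 CPM (383 to 504), with a UMI in 56 of 64 cells. Tuft-like cells followed at 225 CPM (199 to 253, 277 UMIs) and macrophage-like cells at 208 CPM (186 to 231, 333 UMIs), and these 2 did not differ beyond their intervals. Cluster 27 exceeded tuft-like cells by a log2 ratio of 0.97 (0.71 to 1.23). That gap changed with the grouping and the filter. At a Leiden resolution of 0.5 the cells of cluster 27 joined a fibroblast-like cluster of 176 cells. The class that took them in then had a log2 ratio to the next of -0.81. With a looser cell filter the class that held most of them had a ratio of -0.77, and the causes were not tested. Fibroblast-like cells were at 62.3 CPM (143 UMIs), smooth muscle-like cells at 73.0 CPM (53 UMIs) and blood endothelial-like cells at 88.0 CPM (35 UMIs).

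Ptgs2, the inducible cyclooxygenase (chr1:150100031-150108234), was rare, with 61 UMIs in the small and 105 in the large intestinal cells. Macrophage-like cells held 57 of the 61 small intestinal Ptgs2 UMIs, in 25 of 172 cells, at 51.6 CPM (39.1 to 66.9). The large intestinal macrophage-like level of Ptgs2 was 13.7 CPM (8.61 to 20.8, 22 UMIs in 10 of 197 cells). Cluster 27 was the highest there, at 127 CPM (97.0 to 163, 61 UMIs in 29 of 64 cells), and fibroblast-like cells held 21 UMIs at 9.15 CPM. The log2 ratio of the highest over the next class was 3.21, against 1.11 at a Leiden resolution of 0.5 and 1.00 with the looser filter. Tuft-like cells had 3 Ptgs2 UMIs in the small intestine and 0 in the large.

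**Figure D1:**
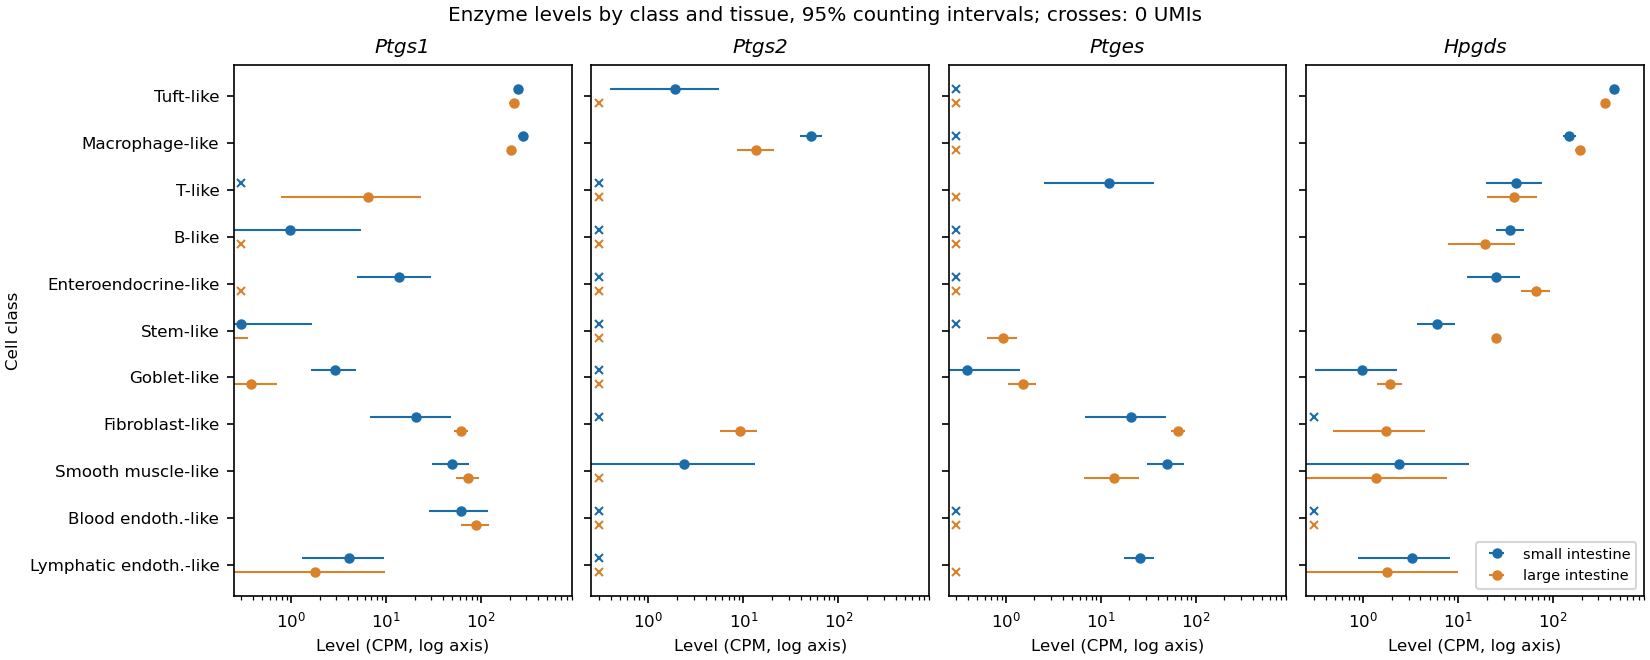
Levels of Ptgs1, Ptgs2, Ptges and Hpgds in CPM (log axis) by named cell class in small and large intestinal cells; points are 1 library each, bars are 95% counting intervals and crosses mark classes with 0 UMIs. Ptgs1 is high in tuft-like and macrophage-like cells of both tissues, Hpgds is highest in tuft-like cells, and Ptges has 0 UMIs in both of these classes.

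Ptges, the inducible microsomal prostaglandin E synthase (chr2:30889471-30931020), was highest in stromal classes and had 0 UMIs in tuft-like and macrophage-like cells of both tissues. Large intestinal cluster 27 held 84 Ptges UMIs at 175 CPM (139 to 216) and fibroblast-like cells 150 UMIs at 65.4 CPM (55.3 to 76.7). The fibroblast-like cells were not uniform: Ptges was at 113 CPM (97 UMIs) in cluster 17, led by Edil3, Ccn2 and Eln, and at 36.9 CPM (53 UMIs) in cluster 26, led by Pcolce2, Pi16 and C3. Large intestinal epithelium held Ptges at lower levels, with 55 UMIs at 4.10 CPM in 50 of 501 cells of unnamed cluster 9 (led by Ido1, Mmp7 and Smim38), 36 UMIs in goblet-like and 31 in stem-like cells. In the small intestine smooth muscle-like cells led with 49.5 CPM (30.6 to 75.6, 21 UMIs), and fibroblast-like cells held 5 UMIs at 20.8 CPM. RefSeq places 2 other gene models, Gm52550 and Gm13400, over the Ptges span, and whether the counting separated strands is not given in the sources used here.

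Lymphatic endothelial-like cells differed in Ptges between the tissues. In the small intestine they held 32 Ptges UMIs in 24 of 349 cells, at 25.9 CPM (17.7 to 36.5), and in the large intestine 0 UMIs in 205 cells, an interval of 0 to 6.53 CPM that does not reach the small intestinal one. Smooth muscle-like cells were in the same direction, at 49.5 against 13.8 CPM (10 UMIs), a log2 ratio of 1.85 (0.70 to 3.09). The median depth of the lymphatic endothelial-like cells was 3370 UMIs in the small and 2292 in the large intestine. Tissue, library and sort cannot be told apart here, since each tissue is 1 library.

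Hpgds, the haematopoietic prostaglandin D synthase (chr6:65117293-65144981), was highest in tuft-like cells of both tissues. The small intestinal level of Hpgds there was 442 CPM (410 to 476, 697 UMIs in 96 of 99 cells) and the large intestinal level 355 CPM (322 to 389, 437 UMIs in 75 of 82 cells). Macrophage-like cells came next, at 149 CPM (127 to 173, 164 UMIs) and 192 CPM (171 to 214, 307 UMIs). Tuft-like exceeded macrophage-like cells by a log2 ratio of 1.57 (1.33 to 1.83) in the small and 0.89 (0.67 to 1.10) in the large intestine. The highest exceeded the next class by 0.81 with the strict filter and 0.83 at a Leiden resolution of 2 in the small intestine, and by 0.30 at that resolution in the large. After thinning, an Hpgds UMI remained in 59 of 99 small (59.6%, 49.3 to 69.3) and 44 of 76 large intestinal tuft-like cells (57.9%, 46.0 to 69.1), against 0 of 90 and 1 of 286 plasma-like cells. Mast cells also make Hpgds, and all 9 mast cell markers searched (Cpa3, Mcpt1, Mcpt2, Mcpt4, Tpsb2, Fcer1a, Ms4a2, Gata2 and Cma1) had 0 UMIs in tuft-like cells of both tissues and in small intestinal macrophage-like cells. In large intestinal macrophage-like cells 2 of the 9 had UMIs, 3 in all, and Cpa3 was at 0.

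Hpgds also had lower levels in lymphocytes and in stem-like cells. T-like cells were at 41.1 CPM (10 UMIs) in the small and 39.0 CPM (12 UMIs) in the large intestine. B-like cells were at 35.4 CPM (36 UMIs) and 19.3 CPM (7 UMIs). Stem-like cells differed between the tissues: they held 20 Hpgds UMIs at 6.01 CPM in the small and 835 UMIs at 25.1 CPM (23.4 to 26.8) in the large intestine, a log2 ratio of small over large of -2.06 (-2.78 to -1.42), which was -1.02 with doublets kept. After thinning, an Hpgds UMI remained in 63 of 1144 large intestinal stem-like cells (5.51%, 4.26 to 6.99) and in 0 of 154 small intestinal ones, which allows up to 2.37% at the thinned depth. Since the small intestinal cells held 20 Hpgds UMIs before thinning, this 0 does not show absence. Both large intestinal stem-like clusters carried it: cluster 5, led by Reg3b, Tmem178 and H1fx, was at 32.8 CPM (533 UMIs, in 260 of 533 cells), and cluster 6, with Lgr5 among its leaders, at 17.7 CPM (302 UMIs, in 207 of 640 cells). Of the 10 tuft markers 9 had UMIs in these large intestinal stem-like cells, with Il25 at 0, summing to 113 UMIs beside their 835 Hpgds UMIs. The tuft-like cells of that library held 8198 marker UMIs beside 437 of Hpgds, and the part of tuft RNA in the stem-like level was not tested.

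Ptgs1 and Hpgds were detected together in part of the tuft-like and macrophage-like cells. Both had a UMI in 76 of 99 small and 54 of 82 large intestinal tuft-like cells. Ptgs1 had one in 78 and 55 of these cells and Hpgds in 96 and 75. Among macrophage-like cells 54 of 172 and 84 of 197 had both, with Ptgs1 in 87 and 107 and Hpgds in 74 and 107. Whether the overlap exceeds what these single shares give was not tested. After thinning, 27 of 99 and 17 of 76 tuft-like cells kept both. The tuft marker list summed to 9403 and 6651 CPM in the tuft-like cells and to 24.4 and 8.12 CPM in the macrophage-like cells, and the macrophage list to 17.1 and 17.8 CPM in the tuft-like cells, so each type had the other's markers near 0 relative to its own. Cluster 27 combined other members: of its 64 cells 29 held both Ptgs1 and Ptgs2, 35 held Ptgs1 and Ptges, 23 held Ptgs2 and Ptges, and 1 held Ptgs1 and Hpgds.

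Hpgd, the dehydrogenase that inactivates prostaglandin E2 (chr8:56294552-56321046), was high in the differentiated absorptive epithelium. In the small intestine fibroblast-like cells were highest at 329 CPM (260 to 410, 79 UMIs in a class of 33 cells), above enterocyte-like cells at 168 CPM (160 to 177, 1528 UMIs) by a log2 ratio of 0.97 (0.63 to 1.30). Macrophage-like cells at 163 CPM (140 to 189) did not differ from enterocyte-like cells beyond the intervals. Goblet-like cells, the mucus makers, were at 88.7 CPM, stem-like cells at 60.7 CPM (202 UMIs), tuft-like cells at 37.4 CPM and lymphatic endothelial-like cells at 1.62 CPM (2 UMIs). In the large intestine colonocyte-like cells, the absorptive cells there, led at 286 CPM (273 to 300, 1745 UMIs). Unnamed cluster 0, with the colonocyte markers Car1 and Slc20a1 among its leaders, came next at 158 CPM (1278 UMIs), and fibroblast-like (146 CPM, 131 to 163) and macrophage-like cells (138 CPM, 120 to 157) followed with overlapping intervals. Goblet-like cells were at 53.5 CPM, stem-like cells at 50.5 CPM and smooth muscle-like cells at 12.4 CPM (9 UMIs). With a stricter cell filter the class that held most of these colonocyte-like cells had a log2 ratio to the next of -0.96.

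**Figure D2:**
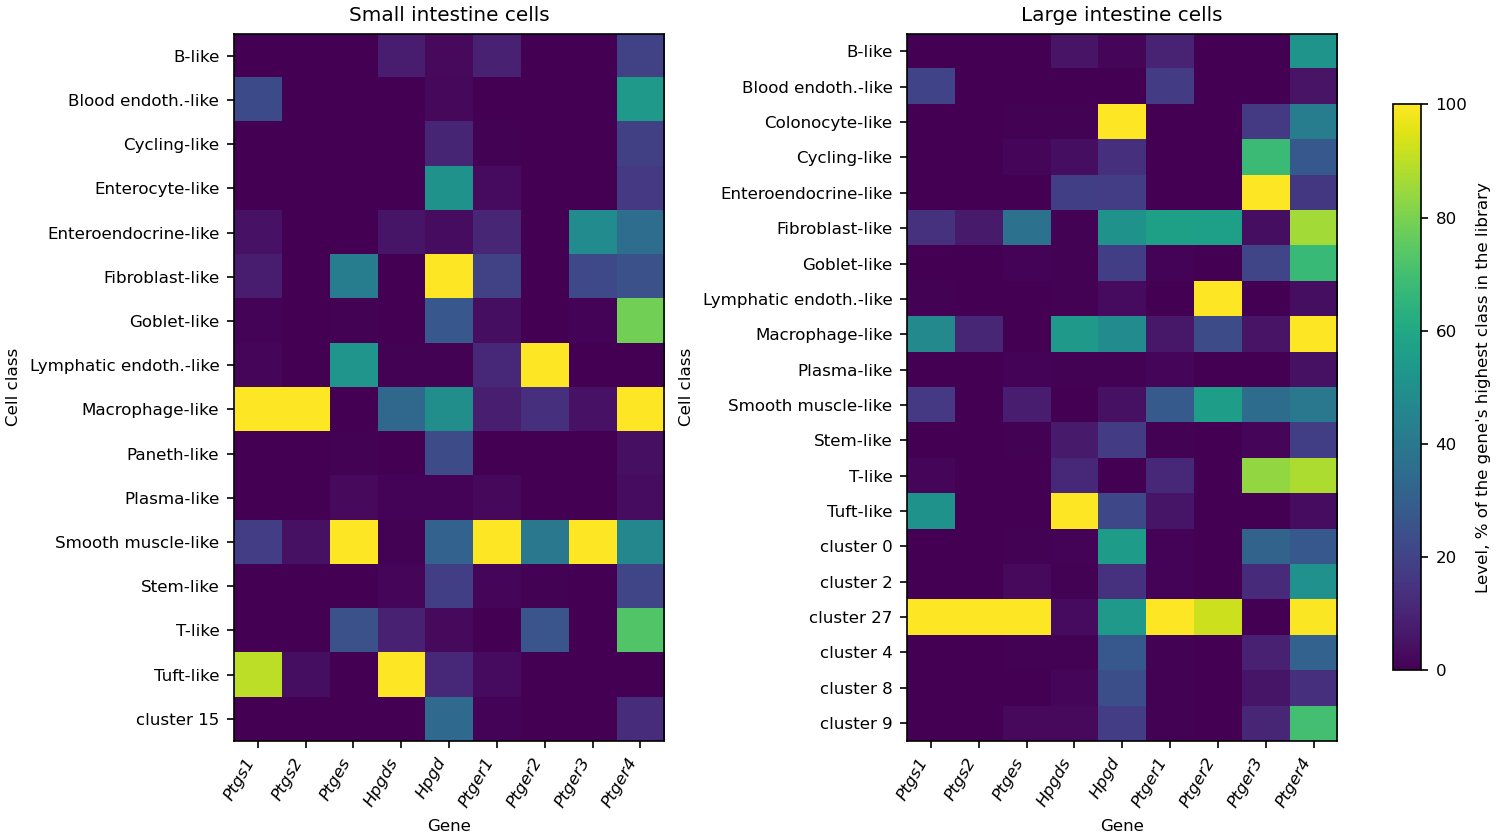
Level of each of the 9 genes in each cell class of the small and large intestinal libraries, as a percent of that gene's highest class in that library. Hpgds peaks in tuft-like cells, small intestinal Ptger2 in lymphatic endothelial-like cells, Ptger4 in macrophage-like cells, and Hpgd in small intestinal fibroblast-like and large intestinal colonocyte-like cells; small intestinal Ptges is highest in smooth muscle-like cells, and large intestinal Ptgs1, Ptgs2 and Ptges in cluster 27. The highest classes of Ptger1 and Ptger3 rest on 6 to 14 UMIs and were not resolved from the next class. The macrophage-like peak of Ptger4 was not resolved from the next class in either tissue.

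Among the receptors, Ptger4 (EP4, coupled to cyclic AMP; chr15:5233399-5244187) had 586 UMIs in the small and 2365 in the large intestinal cells, and it had UMIs in immune, stromal and goblet-like cells. Macrophage-like cells were highest, at 50.7 CPM (38.3 to 65.9) in the small and 48.1 CPM (37.9 to 60.1) in the large intestine, but neither order was resolved. The log2 ratio was 0.34 (-0.11 to 0.78) over small intestinal goblet-like cells and 0.008 (-0.68 to 0.75) over large intestinal cluster 27. With CPM averaged over cells the small intestinal order turned. Small intestinal goblet-like cells followed at 39.9 CPM (34.7 to 45.8, 207 UMIs) and T-like cells were at 37.0 CPM (9 UMIs), and these neighbours overlapped. Large intestinal goblet-like cells were at 32.6 CPM (30.4 to 35.0, 784 UMIs), T-like cells at 42.2 CPM (13 UMIs), fibroblast-like cells at 41.4 CPM (95 UMIs) and cluster 27 at 47.8 CPM. The large intestinal goblet-like average hid a spread between clusters, from 84.7 CPM in cluster 11 (led by Reg4, Tff2 and Retnlb) and 52.3 CPM in cluster 12 to 20.3 CPM in cluster 1 and 7.30 CPM in cluster 22 (led by Spink1, Zg16 and Slpi).

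Ptger4 was near absent in tuft-like and lymphatic endothelial-like cells and low in several epithelial classes, the stem-like one among them. In small intestinal epithelium it was at 9.66 CPM in cycling-like, 8.35 CPM in enterocyte-like and 2.08 CPM in Paneth-like cells. The Visium sections described below differed, with Ptger4 highest at 196 and 243 CPM in a region whose leaders include the enterocyte marker Apoa4. Stem-like cells were at 10.5 CPM (35 UMIs) in the small and 8.83 CPM (294 UMIs) in the large intestine, and these did not differ beyond counting error (log2 ratio 0.25, -0.30 to 0.76). After thinning, 6 of 154 (3.90%, 1.44 to 8.29) and 25 of 1144 stem-like cells (2.19%, 1.42 to 3.21) kept a Ptger4 UMI, against 0 of 90 and 1 of 286 plasma-like cells. Tuft-like cells had 0 and 2 Ptger4 UMIs and lymphatic endothelial-like cells 0 and 1.

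Ptger2 (EP2, also coupled to cyclic AMP; chr14:44988111-45003820) had its highest level in the lymphatic endothelial-like class of both tissues. The small intestinal cells held 58 of the library's 77 Ptger2 UMIs, in 48 of 349 cells, at 46.9 CPM (35.6 to 60.6). The large intestinal cells held 14 UMIs in 12 of 205 cells, at 24.8 CPM (13.5 to 41.6), beside 22.9 CPM (11 UMIs) in cluster 27, an order that was not resolved (log2 ratio 0.12, -1.13 to 1.40), and 14.0 CPM (32 UMIs) in fibroblast-like cells. The log2 ratio of small over large in lymphatic endothelial-like cells was 0.92 (0.06 to 1.88). After thinning, 29 of 258 (11.2%, 7.66 to 15.7) and 8 of 115 (6.96%, 3.05 to 13.2) kept a Ptger2 UMI, against 0 of 90 and 0 of 286 plasma-like cells. Stem-like cells of either tissue held 1 Ptger2 UMI, so of the 2 receptors coupled to cyclic AMP the lymphatic endothelial-like cells carried Ptger2 UMIs and the stem-like cells Ptger4 UMIs.

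Ptger1 and Ptger3 were near the limit of these libraries. Ptger1 (EP1, linked to calcium; chr8:83666644-83672756) had 33 UMIs in the small and 94 in the large intestinal cells, with 21.2 CPM (9 UMIs) in small intestinal smooth muscle-like cells and 29.1 CPM (14 UMIs) in cluster 27 as the highest classes. Neither order over the next class, the fibroblast-like one, was resolved (log2 ratio 2.35, -0.50 to 7.80, and 0.81, -0.19 to 1.73). Ptger3 (EP3, which lowers cyclic AMP; chr3:157566821-157644758) had 15 and 165 UMIs, with 18.8 CPM (8 UMIs) in small intestinal smooth muscle-like cells and 11.6 CPM (6 UMIs) in large intestinal enteroendocrine-like cells, the hormone-secreting epithelium. These orders over the next class were not resolved either, over enteroendocrine-like cells in the small intestine (log2 ratio 1.05, -0.85 to 3.23) and T-like cells in the large (0.26, -1.97 to 2.89). The 165 UMIs lay in 146 cells of 14 classes. Goblet-like cells held 58 of them at 2.41 CPM, and cluster 0 held 30 at 3.71 CPM.

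Within matched classes the 2 tissues were close for some members and apart for others, read against the share of all genes past the same 2-fold bound. Members and other genes were counted where a class held at least 20 UMIs over both tissues, with counts under 3 set to 3. In tuft-like cells 3 members could be counted and 0 were past 2-fold, where 8.85% of all genes were higher and 7.37% lower in the small intestine. Ptgs1 there had a log2 ratio of 0.14 (-0.08 to 0.37) and Hpgds one of 0.32 (0.14 to 0.49). In macrophage-like cells 1 of 5 was past 2-fold, Ptgs2, at 51.6 against 13.7 CPM (log2 ratio 1.91, 1.18 to 2.69), where 6.01% of all genes were higher and 4.9% lower. Ptgs1 was at 275 against 208 CPM (log2 ratio 0.41, 0.18 to 0.63) and Hpgds at 149 against 192 CPM (-0.37, -0.65 to -0.09), and the Hpgds ratio became 0.45 with the stricter cell filter.

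In stem-like cells 1 of 4 counted members, Hpgds, was lower in the small intestine past 2-fold, where 7.93% of all genes were, and 0 were higher, where 10.7% were. In lymphatic endothelial-like cells 1 of 2, Ptges, was higher (8.06% of all genes) and 0 lower (4.92%). In goblet-like cells 1 of 6 was higher (Ptgs1, from 15 and 9 UMIs; 7.03% of all genes) and 2 lower (Ptges and Ptger3; 13.7%), and Ptger4 had a log2 ratio of 0.29 (0.06 to 0.52) that became -0.24 with doublets kept. Fibroblast-like cells had 1 of 7 higher (Hpgd; 6.74% of all genes) and 3 lower (Ptgs1, Ptges and Ptger4; 7.48%). Their 33 small intestinal cells formed 1 cluster led by C3, Igfbp6 and Pcolce2, and the 305 large intestinal cells 2 clusters, and whether the mix of fibroblasts differed was not tested. Smooth muscle-like cells had 2 of 4 higher (Ptges and Hpgd; 10.2% of all genes) and 0 lower (11.2%), with Hpgd at 104 against 12.4 CPM (log2 ratio 3.06, 2.01 to 4.28).

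The rest of the pathway was read from a list of 27 genes for the phospholipases that free arachidonic acid, other synthases, transporters, further breakdown enzymes, other prostanoid receptors and the leukotriene branch, of which 26 are listed in the files. In the small intestine 20 of the 26 had at least 20 UMIs in their highest class, and 6 of these were highest in tuft-like cells, where 12% of all genes with that count were: Pla2g4a, Akr1b3, Ptgr2, Alox5, Alox5ap and Ltc4s. Alox5ap, the helper protein of leukotriene synthesis, was at 1621 CPM in tuft-like against 207 CPM in macrophage-like cells, and Ltc4s, the leukotriene C4 synthase, at 1118 CPM against 160 CPM in the next class, the lymphatic endothelial-like one. In the large intestine 21 of the 26 reached that count and 4 were highest in tuft-like cells (Ptgr2, Alox5, Alox5ap and Ltc4s; 6.84% of all genes). For Ptgr2, a prostaglandin reductase, that order was not resolved, at 48.7 CPM in tuft-like cells beside 45.7 CPM in cluster 0 (log2 ratio 0.09, -0.33 to 0.49). There Alox5ap was at 416 CPM in tuft-like and 347 CPM in macrophage-like cells. Cluster 27 was highest for Pla2g4a, the cytosolic phospholipase, at 376 CPM (181 UMIs) and for Akr1b3. Tbxas1, the thromboxane synthase, was highest in macrophage-like cells and Ptgis, the prostacyclin synthase, in fibroblast-like cells of both tissues, although the order was not resolved for large intestinal Tbxas1 over cluster 27 (log2 ratio 0.39, -0.09 to 0.90) or small intestinal Ptgis over smooth muscle-like cells (0.47, -0.23 to 1.17).

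The likeness of other genes to each member was taken as Pearson's r of log2(CPM + 10) over 36 classes of both tissue libraries, a description across classes that share libraries and depth. The most alike to Hpgds were Vav1 (0.90), Plcb2 (0.89) and Alox5ap (0.88), and to Ptgs2 Tbxas1 (0.87), Arhgap22 (0.87) and Ccl8 (0.86). Ptges and Ptger1 shared Aard and Robo1 among their 3 most alike genes, with r of 0.90 to 0.93 over the genes named for either. Ptger2 was most like Susd2 (0.89) and Ptger4 most like AW112010 (0.74). Among the members r was highest for Ptges with Ptger1 (0.87), followed by Ptges with Ptger2 (0.70) and Ptgs1 with Ptgs2 (0.67), and was 0.51 for Ptgs1 with Hpgds.

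In the organoids, which were sorted as epithelial cells, the members with a steady level were Hpgd and Ptger4, and Ptges, Ptgs1 and Ptger3 were held by a few cells. Control cells had Ptger4 at 26.4 CPM (24.9 to 27.9, 1141 UMIs) and cocultured cells at 14.8 CPM (14.0 to 15.6, 1433 UMIs), which gives a log2 ratio of -0.83 (-0.95 to -0.72). The libraries also differed in quality, with 211 of 818 control and 176 of 1233 cocultured barcodes left out for mitochondrial UMIs and a median of 73664 and 86295 UMIs in the kept cells; the part of this in the ratio was not tested. Ptger4 was lower in the coculture in 9 of 10 classes and higher only in the enteroendocrine-like class (12.9 CPM from 2 UMIs against 19.1 CPM from 14 UMIs). The intervals of the ratio lay wholly under 0 in 5 classes: enterocyte-like cells (28.5 against 13.8 CPM), cluster 10 (26.7 against 8.99 CPM), cluster 1, cycling-like and Paneth-like cells. The enterocyte-like class mixed its 2 clusters in different shares, and by cluster Ptger4 was at 37.7 and 23.7 CPM in cluster 7 (36 control and 101 cocultured cells) and at 5.71 and 3.76 CPM in cluster 12 (13 and 78 cells, 6 and 28 UMIs). Regenerative-like cells, named from markers of repairing epithelium such as Ly6d, Clu and Anxa1, had the highest Ptger4 of the named classes in both libraries, 61.4 and 53.6 CPM, with a log2 ratio of -0.20 (-0.47 to 0.07). The unnamed cluster 3 was higher, at 99.3 CPM (66.0 to 143, 28 UMIs) in the control and 90.1 CPM (55.0 to 139, 20 UMIs) in the coculture.

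The mix of classes moved with the condition. Regenerative-like cells made up 25.8% of the control (22.2 to 29.8; 139 of 538 cells) and 9.53% of the coculture (7.81 to 11.5; 98 of 1028 cells), and enterocyte-like cells 9.11% (6.81 to 11.9) and 17.4% (15.1 to 19.9). The regenerative-like class joined cluster 6 (81 control and 36 cocultured cells, with Ptger4 at 63.1 and 59.0 CPM) and cluster 2 (58 and 62 cells with a median of 1343 and 1864.5 UMIs, holding 5 and 3 Ptger4 UMIs). Without the low-UMI clusters 2 and 3 the log2 ratio of Ptger4 over all cells was -0.83. With the cocultured class levels weighted by each class's share of the control UMIs, not of the cells, Ptger4 was at 19.7 CPM and its log2 ratio was -0.42. The same weighting turned the log2 ratio of Hpgd from 0.15 (0.09 to 0.20; 84.9 and 94.1 CPM) to -0.04, and in enterocyte-like cells Hpgd was at 188 and 177 CPM. That class joins cluster 7, where Hpgd was at 190 and 120 CPM (36 control and 101 cocultured cells), and cluster 12, where it was at 181 and 235 CPM (13 and 78 cells), so the 2 clusters went opposite ways. Over 13953 genes with at least 20 UMIs the median log2 ratio was -0.11.

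**Figure D3:**
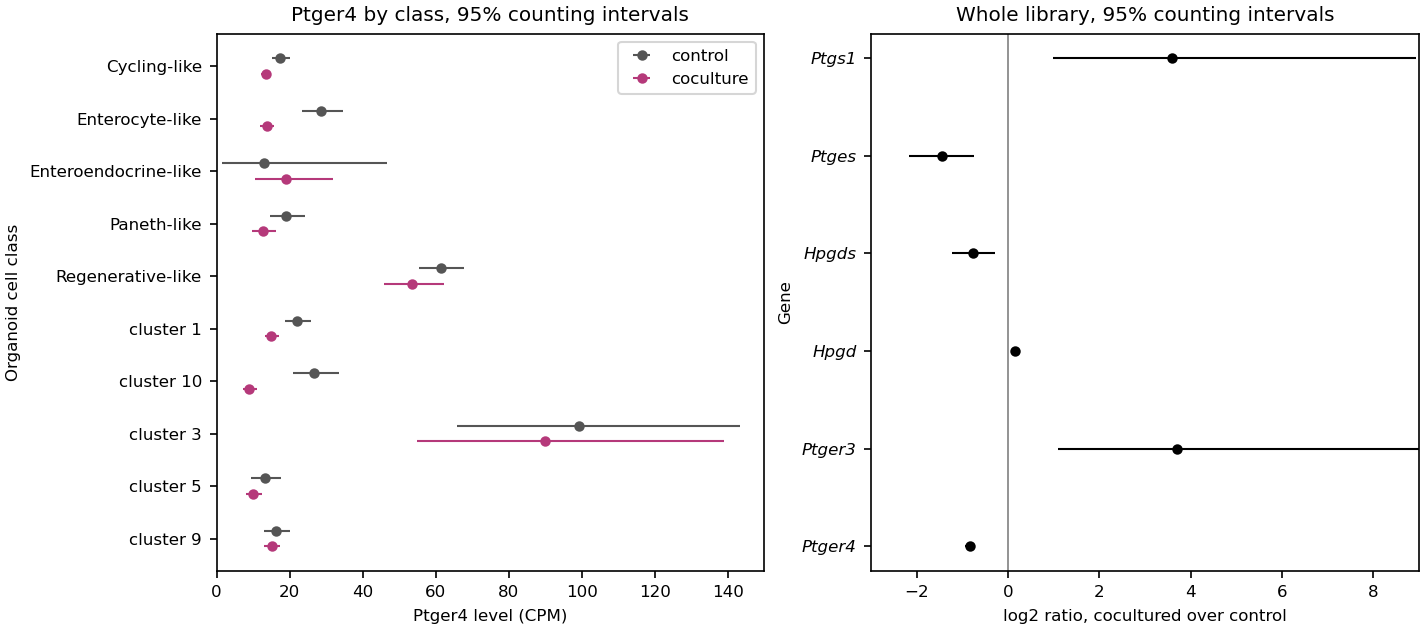
Left, Ptger4 in CPM by organoid class in the control and cocultured libraries (1 library each, bars are 95% counting intervals); right, log2 ratio of cocultured over control for the 6 members with at least 20 UMIs over both libraries. Ptger4 is lower in the coculture in 9 of 10 classes, and the ratios of Ptgs1 and Ptger3 have wide intervals because the control library held 1 UMI of each.

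Ptges, Ptgs1 and Ptger3 were carried by few organoid cells. All 39 control Ptges UMIs lay in 11 regenerative-like cells, and 19 of 32 cocultured Ptges UMIs in 6 such cells. Over the whole libraries Ptges was at 0.901 and 0.330 CPM (log2 ratio -1.45, -2.17 to -0.74), but within regenerative-like cells it was at 6.19 and 5.99 CPM, and the log2 ratio at control class shares of UMIs was 0.11. Ptgs1 had 1 UMI in the control and 27 in the coculture, of which 23 lay in 1 Paneth-like cell; the log2 ratio was 3.59 (0.99 to 8.95). Once the cell richest in Ptgs1 was left out of each library, 0 control and 4 cocultured UMIs remained, too few for a ratio. The 2 Paneth-like cells of the coculture with a Ptgs1 UMI also held at least 5 tuft marker UMIs each. Ptger3 had 1 and 29 UMIs (log2 ratio 3.69, 1.10 to 9.05), and 28 of the 29 lay in 3 enteroendocrine-like cells, with 19 in 1 cell. Hpgds had 69 and 91 UMIs, at 1.59 and 0.939 CPM (log2 ratio -0.76, -1.23 to -0.29), in 45 control and 49 cocultured cells. One Paneth-like cell of each library held 18 and 25 of these. Of the 7 control and 5 cocultured Paneth-like cells with an Hpgds UMI, 1 and 2 held at least 5 tuft marker UMIs. The cycling-like cells, with at most 2 a cell, held 20 and 18 at 1.80 and 0.664 CPM (log2 ratio -1.44, -2.45 to -0.45).

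Ptgs2 had 1 and 5 UMIs, Ptger1 9 and 9, and Ptger2 0 in both organoid libraries, for which the intervals reach 0.0852 CPM (control) and 0.0380 CPM (coculture). Of the 6 members with at least 20 UMIs 2 were higher and 1 lower past 2-fold, where 2.76% of the 13953 genes were higher and 5.05% lower, and the 3 members past 2-fold were the ones held by few cells or by 1 class. The members' median log2 ratio was -0.31. Of the 26 pathway genes 15 could be counted, with 0 higher and 1 lower past 2-fold (Alox5ap, 31 and 15 UMIs, log2 ratio -2.21, -3.21 to -1.28), and a median of 0.09.

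In the Visium sections, where a spot covers several cells, the small intestine had more Ptger4 and Ptgs2 than the large. Small intestinal sections had Ptger4 at 75.9 and 93.5 CPM and large intestinal ones at 21.3 and 19.5 CPM. The log2 ratio of Ptger4 was 2.07 (1.99 to 2.15), and the nearest sections differed 3.56-fold. Ptgs2 was at 12 and 17.2 CPM against 3.32 and 3.83 CPM, a log2 ratio of 2.05 (1.86 to 2.25), and the nearest sections differed 3.13-fold. In tissue sections, fewer cells of a type and less RNA per cell cannot be told apart. The Ptger4 contrast was not that of the sorted cells, where the whole small intestinal library was at 11.2 CPM and the large at 19.1 CPM.

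The other members differed less between the sections of the 2 tissues. In the small intestine Ptgs1 was at 34.7 and 38.3 against 22.8 and 23.5 CPM, Ptger2 at 3.08 and 4.09 against 1.94 and 1.78 CPM, and Ptger3 at 3.04 and 4.25 against 1.99 and 2.03 CPM. The large intestine was the higher for Hpgd (56.2 and 57.3 against 83.2 and 84.5 CPM), Ptges (8.05 and 7.78 against 9.74 and 10.6 CPM), Hpgds (3.82 and 3.66 against 5.04 and 4.22 CPM) and Ptger1 (2.14 and 1.40 against 3.20 and 2.90 CPM). The sections of the tissues did not overlap for any of the 9 members, with 5 higher in the small and 4 in the large intestine, where 41.1% and 42.5% of 16839 genes did not overlap in these directions. Past 2-fold between the nearest sections were 2 of 9 higher and 0 lower, against 11.1% and 10.7% of all genes, and without the first small intestinal section 4 were higher and 1 lower.

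Of the 26 pathway genes 23 could be counted in the sections, with 5 higher past 2-fold in the small intestine (Prxl2b, Ptgfr, Alox5, Ltc4s and Cysltr2) where 11.1% of all genes were, and 5 lower (Pla2g4a, Pla2g5, Pla2g10, Akr1b3 and Cbr1), where 10.7% were. They had a median log2 ratio of 0.28 against 0.66 for the 9 members and 0.003 for all genes. The lowest ratios were those of Cbr1, a carbonyl reductase that acts on prostaglandin E2, at -3.68 and Pla2g10, a secreted phospholipase, at -3.30.

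**Figure D4:**
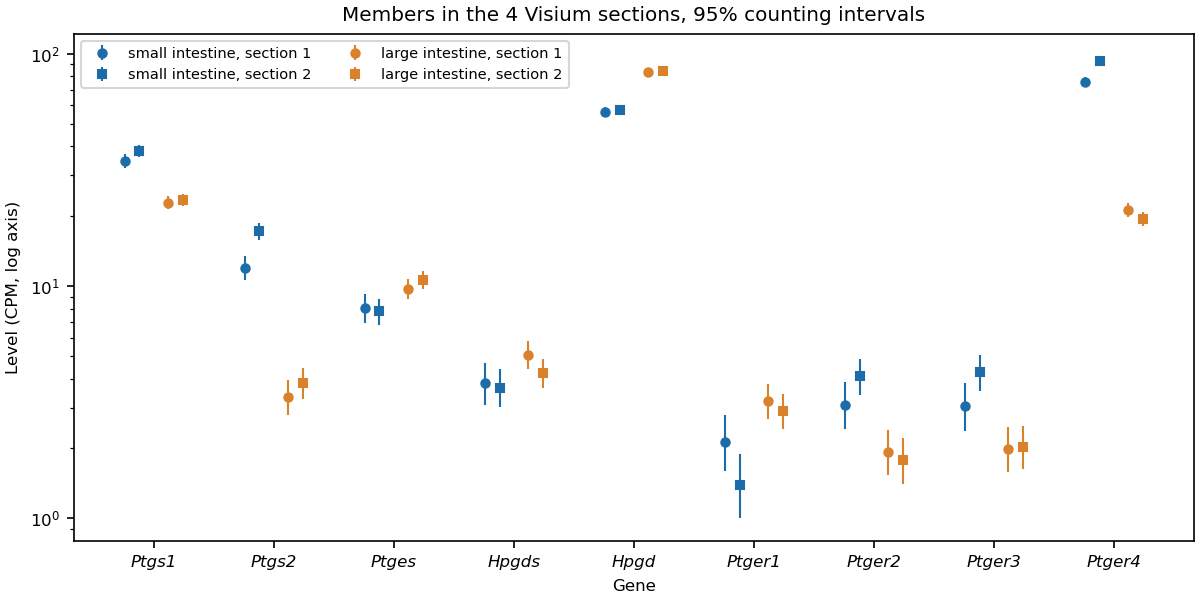
Level of each of the 9 genes in CPM (log axis) in the 4 Visium sections, 2 technical duplicates of each tissue, 1 point a section. Ptger4 and Ptgs2 show the widest gap between the tissues, with small intestinal sections at 75.9 and 93.5 CPM for Ptger4 against 21.3 and 19.5 CPM.

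Within a section the members lay in different regions, which are clusters of spots made without the members and are called by number and leading genes. In the small intestine Ptger4 was highest in region 3, led by Slc28a2, Ada, Apoa4 and Clca4a, at 196 and 243 CPM in the 2 sections, against 82.3 and 95 CPM in region 0, the next, and 24.6 and 26.7 CPM in region 4, the lowest. Apoa4 is on the enterocyte marker list, yet enterocyte-like cells of the small intestinal cell library had Ptger4 at 8.35 CPM. The cause of this difference was not tested. Region 3 was not among the highest for Ptgs1, at 23.1 and 23.3 CPM. Ptgs1 was highest in region 4, with the muscle genes Actg2 and Myh11 among its leaders, at 75.3 and 77.3 CPM, followed by region 0, led by immunoglobulin genes such as Iglc1 and Iglc2, at 72.6 and 65.8 CPM. Ptgs2 was highest in region 0, at 27.7 and 31.3 CPM, and lowest in region 6, led by the proliferation genes E2f8, Melk and Ube2c, at 2.41 and 2.48 CPM. Ptges was highest in region 0 as well, at 29.2 and 23.1 CPM, and Ptger3 in region 4, at 11.5 and 14.8 CPM. The same region was highest in both small intestinal sections for 6 of the 9 members (Ptgs1, Ptgs2, Ptges, Ptger2, Ptger3 and Ptger4).

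In the large intestine the same region was highest in both sections for 8 of the 9 members, all but Ptger2. Ptgs1 was highest in region 4, led by Vip, Penk and Prph with Actg2 among its leaders, at 61.7 and 54.9 CPM, and lowest, at 5.13 to 8.06 CPM, in regions 2 and 7. Hpgd was highest in region 5, led by Sptssb, Cyp2c55 and Mal with the colonocyte marker Guca2a among its leaders, at 129 and 125 CPM, and Ptgs2 was highest there too, at 8.97 and 13.3 CPM. Ptger4 was at 36.0 and 36.9 CPM in region 2, with Retnlb and Pla2g4c among its leaders, at 34.7 and 36.1 CPM in region 5, and lowest in region 1 at 8.53 and 7.86 CPM. Ptges was highest in region 1, led by Apol7c, Fxyd4 and Slc37a2, at 15 and 17.9 CPM, where Ptgis was at its lowest, 1.5 and 1.89 CPM. Ptger1 was highest in region 3, led by the lymphatic genes Mmrn1, Ccl21a and Lyve1, at 13.2 and 12.8 CPM, although lymphatic endothelial-like cells had 3 and 0 Ptger1 UMIs in the small and large intestinal cell libraries.

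**Figure D5:**
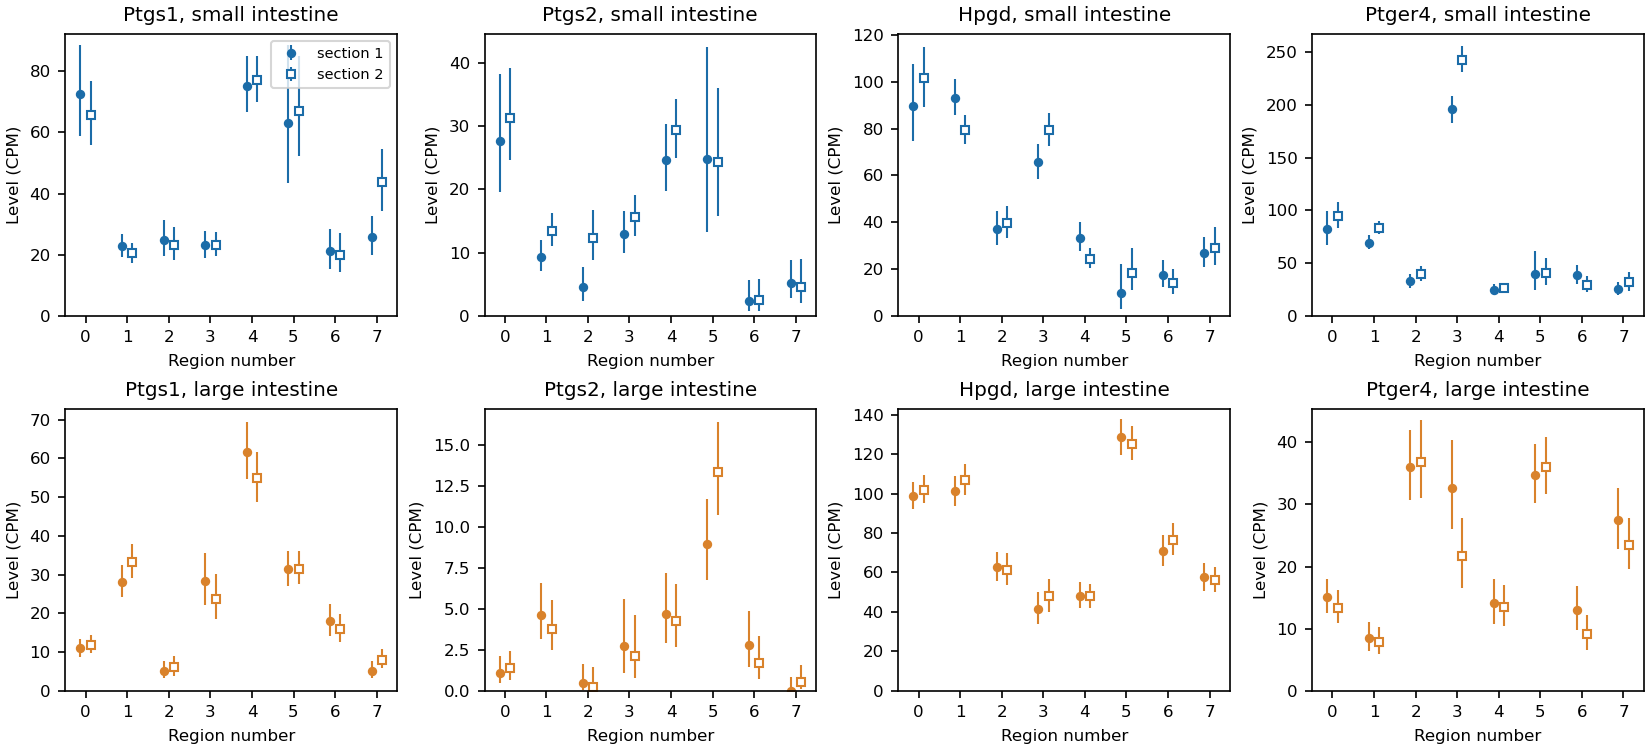
Levels of Ptgs1, Ptgs2, Hpgd and Ptger4 in CPM by region number (0 to 7) in the 2 sections of each tissue. Small intestinal Ptger4 stands highest in region 3 of both sections (196 and 243 CPM), and Ptgs1 in region 4 of both tissues.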

How the data were processed

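Raw counts were used throughout: per the file headers, the deposited matrices are UMI counts per gene and barcode from cellranger 6.0.1 (cells) and spaceranger 1.2.1 (Visium), and per the submitters' processing notes Cell Ranger 6.0.1 and mm10 were used. The 9 members, the marker lists and the pathway list were chosen with earlier results of these data known.

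Barcodes under 500 genes or above 20% mitochondrial UMIs were dropped; Scrublet scored doublets, and the top-scoring cells were removed at a rate of 0.8% per 1000 cells. Spots needed 500 UMIs. Counts were scaled to 10000, log transformed and clustered on 2000 variable genes, 30 principal components and 15 neighbours (scanpy 1.11.5, Leiden resolution 1; Visium 0.5), leaving out the members, the pathway list, and mitochondrial, ribosomal, GFP and sex genes. The organoid libraries were clustered together, each tissue by itself. A class needed 3 raised markers from 1 of 26 lists, and classes under 20 cells were not ranked. Genes named are the 9 members, pathway genes with at least 20 UMIs in their highest class or, between conditions, past 2-fold, class markers and leaders, and the 3 genes most alike each member with at least 100 UMIs. The counting and interval steps were tested on simulated data with known answers.

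UMIs collapse PCR copies of a molecule, and the intervals cover counting error only. Coordinates are those of RefSeq GRCm38.p6, matched by symbol.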

Additional observations from a re-analysis of the deposited data

How the results depend on the processing

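No paired analysis was possible because each organoid condition and each tissue is 1 sample and the Visium sections of a tissue are technical duplicates. For 51 results 331 alternative values were computed. Of these, 273 were counted as staying within the counting interval of the reported value and 49 as moving outside it. The other 9 changed sign from a reported value whose whole interval had the same sign. A change of sign from a reported value whose interval held both signs was counted among the 273 or the 49. Small intestinal Ptger4 with CPM averaged over cells was such a case. The causes were not tested. Weighting by control class shares of UMIs and leaving out low-UMI organoid clusters were chosen after seeing the data.

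In the organoids Ptgs1 became -0.75 once the cell richest in it was left out of each library; 0 control and 4 cocultured UMIs then remained, so that sign comes from setting the control to the floor of 3 counts and shows no lower level in the coculture. Ptges became 0.11 and Hpgd -0.040 at control class shares of UMIs, and Ptger4 -0.42 at those shares and -1.06 with CPM averaged over cells. For the highest over the next class in the small intestine, averaging CPM over cells gave 0.39 for Ptgs1, 1.2 for Hpgds and -0.19 for Ptger4, the strict filter 1.22 for Ptgs1, 1.08 for Ptgs2 and 0.81 for Hpgds, a Leiden resolution of 2 gave 0.95, 0.84 and 0.83, and keeping doublets 1.33 for Ptgs2. In the large intestine Ptgs1 became -0.77 with the loose filter, -0.81 at resolution 0.5 and 0.51 at resolution 2, Ptgs2 1.00 and 1.11 with the first 2 of these, Hpgds 0.66 with doublets kept and 0.30 at resolution 2, and Hpgd -0.96 with the strict filter. Small over large, Hpgds became 0.53 in tuft-like and -1.02 in stem-like cells with doublets kept and 0.45 in macrophage-like cells with the strict filter, and goblet-like Ptger4 became -0.052 with the loose filter and -0.24 with doublets kept.

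Leaving out each Visium section in turn gave log2 ratios of 1.74 to 2.26 for Ptgs2 and 1.90 to 2.20 for Ptger4, and 2 to 4 members higher and 0 to 1 lower past 2-fold; without mitochondrial and ribosomal protein genes Ptger4 was 1.93. With a minimum of 100 UMIs, 1.24% of all genes were higher and 2.81% lower past 2-fold in the coculture, and with no minimum above 0, 24.9% were lower. That last share does not measure lower levels, because counts under 3 were set to 3. A gene at or under 3 UMIs in both libraries then comes out lower from the difference in library size alone. Depth limits the class levels of Ptger1 and small intestinal Ptger3 and the organoid values of Ptgs1, Ptgs2 and Ptger2, which rest on few UMIs.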
